A study of Mus musculus with 8 samples.

Results

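The genes described here encode the enzymes that assemble triglyceride in the liver, namely the acyltransferases *Gpam*, *Agpat2* and *Agpat3*, the lipins *Lpin1*, *Lpin2* and *Lpin3*, the diacylglycerol acyltransferases *Dgat1* and *Dgat2*, and the monoacylglycerol acyltransferases *Mogat1* and *Mogat2*. They were chosen by gene symbol, and all 10 were found among the 16540 symbols of the count table. Liver RNA came from mice of genotype *Apoe*-/-, which lack apolipoprotein E and accumulate plasma cholesterol. All mice received a Western diet, which the study's methods describe as high in cholesterol. Of these, 4 mice were given ISOGK (isoginkgetin, a ginkgo biflavonoid studied as an inhibitor of ATP citrate lyase) by intraperitoneal injection at 20 mg/kg per day for 8 weeks, and 4 mice were given the vehicle, which the study's scheme names as DMSO. Every mouse thus carried the knockout and ate the diet, and no age or sex of the sequenced mice is given in the sources used here.

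Triglyceride is built on glycerol-3-phosphate. GPAM, on the mitochondrial outer membrane, attaches the initial fatty acid, and the AGPAT enzymes attach the next to give phosphatidic acid. Lipins remove the phosphate to leave diacylglycerol, and DGAT1 or DGAT2 adds the last fatty acid. MOGAT enzymes reach diacylglycerol by another route, from monoacylglycerol, which is most active in the intestine. DGAT1 and DGAT2 catalyse the same reaction but are unrelated in sequence, while DGAT2 belongs to the family of the MOGAT enzymes.

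Promoter windows of *Gpam* and *Agpat3*, which were both higher with ISOGK, and of *Lpin1*, which varied most between mice, are printed here as the RefSeq windows of GRCm38.p6 from 250 bases before to 50 bases after the annotated start, read along the gene. All 3 genes lie on the minus strand. The table holds a second window for *Gpam*, not printed, with a GC box at position -16. The printed windows are chr19:55127189-55127488 for *Gpam*, chr10:78351651-78351950 for *Agpat3* and chr12:16610917-16611216 for *Lpin1*, and capitals mark the single motif found in them.
Gpam: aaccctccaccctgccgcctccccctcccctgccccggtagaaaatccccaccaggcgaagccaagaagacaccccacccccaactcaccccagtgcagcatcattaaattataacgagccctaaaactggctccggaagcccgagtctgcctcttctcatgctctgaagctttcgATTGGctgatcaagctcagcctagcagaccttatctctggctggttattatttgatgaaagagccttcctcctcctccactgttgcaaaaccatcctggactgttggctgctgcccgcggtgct
Agpat3: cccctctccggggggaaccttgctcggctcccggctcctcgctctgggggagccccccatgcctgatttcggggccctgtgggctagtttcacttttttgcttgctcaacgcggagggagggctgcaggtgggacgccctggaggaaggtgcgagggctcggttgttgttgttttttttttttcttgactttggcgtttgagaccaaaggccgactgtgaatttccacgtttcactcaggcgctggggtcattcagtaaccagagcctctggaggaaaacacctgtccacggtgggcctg
Lpin1: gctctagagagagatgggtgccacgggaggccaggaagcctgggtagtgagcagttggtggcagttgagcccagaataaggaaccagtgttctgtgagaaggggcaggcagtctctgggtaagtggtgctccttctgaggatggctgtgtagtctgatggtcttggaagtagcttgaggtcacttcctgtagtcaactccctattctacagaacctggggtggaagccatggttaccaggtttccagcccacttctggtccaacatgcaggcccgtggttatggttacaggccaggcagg
The letters in capitals are a CCAAT box on the opposite strand, at position -74 from the start of *Gpam*, and 37.4% of all 32851 promoter windows hold CCAAT on either strand. The E-box, a site of clock and lipid-synthesis factors, was searched on both strands by its letters CACGTG, which 7.15% of all windows hold. The GC box of general activators was searched in the same way as GGGCGG, found in 35.7% of all windows. Neither motif is in the 3 windows printed, which says only that these letters are not there. Among the other members with a window, an E-box was found at position -9 in a window of *Lpin2* and at position 22 in a window of *Lpin3*. GC boxes were found in windows of *Agpat2* (3), *Lpin2* (3) and *Lpin3* (1), and CCAAT in windows of *Lpin2* (3) and *Mogat1* (1). Windows were found for 7 of the 10 members, without *Dgat1*, *Dgat2* and *Mogat2*. An SREBP element, a PPAR element, a RORE, a D-box and a TATA box were also searched, each by fixed letters. Of all windows, 0.0913%, 0.0396%, 0.219%, 0.938% and 13.6% hold them, in that order. None was found in the members' windows, which again says only that these letters are not there.

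Between 17457106 and 24461854 reads per library were counted on genes, and 12307 genes passed the filter on low counts. Among the members, 8 passed, while *Mogat1* and *Mogat2* did not. Values are given as normalised CPM, the count per unit of library size after scaling by edgeR's TMM factors, and changes as log2 fold changes of ISOGK against vehicle. The *Apoe* gene itself had 3252 to 6489 counts per library, so the genotype rests on the labels. The Y-linked *Ddx3y* had 350 to 671 counts in every library, so each library held RNA of male tissue. All 8 hepatocyte markers were detected, and 0 of 8 passed the test. Their summed level was 156700 to 170900 CPM with vehicle and 146900 to 191100 CPM with ISOGK. Most of that sum was *Alb*, at 119300 to 129100 and 105200 to 141300 CPM. *Fgb*, another of these markers, had 16850 CPM in ISOGK mouse 4 and 6707 to 7042 CPM in the other ISOGK mice.

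Some libraries stood apart. Vehicle mouse 4 had 76.7 CPM over 8 skeletal muscle markers, against at most 0.54 CPM in any other library. Of 12 time-of-day genes, 10 lay outside the range of the vehicle mice in each of ISOGK mice 2, 3 and 4, but only 2 did in ISOGK mouse 1. Counts outside that range were found in other lists too, and the share over all genes was not counted. In ISOGK mice 1 to 4 they were 7, 8, 8 and 9 of the 10 members, the scarce *Mogat1* and *Mogat2* included. They were 8, 11, 11 and 8 of 12 transcriptional regulators of lipid synthesis, and 6, 5, 4 and 3 of 8 triglyceride breakdown genes. Without the share over all genes, these counts do not show whether any list stands out. The hour of death is not given in the sources used here. The called members and *Lpin1* are also given without such mice. As these are bulk samples, fewer cells of a type and less RNA per cell cannot be told apart.

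The members differed between the groups in opposite directions. *Dgat1*, *Gpam* and *Agpat3* rose and *Dgat2* fell, while *Agpat2*, *Lpin1*, *Lpin2* and *Lpin3* did not pass the test (quasi-likelihood test of edgeR, adjusted p under 0.05 over all tested genes). Of 8 tested members, 3 were thus higher and 1 was lower, where 4.11% of all tested genes were higher, 3.44% were lower and 7.55% passed in either direction. In the same 4 genes the ISOGK mice all lay on one side of the vehicle mice, a separation found for 7.92% of all tested genes upwards, 7.36% downwards and 15.3% in all. None of the members changed by more than 1 on the log2 scale at that adjusted p, a size that 1.63% of all tested genes reached (0.999% higher, 0.626% lower). The median log2 fold change was 0.37 over the 8 tested members and 0.00176 over all tested genes. As the members were chosen with earlier results of these data known, these shares are no test of the set.

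**Figure D1:**
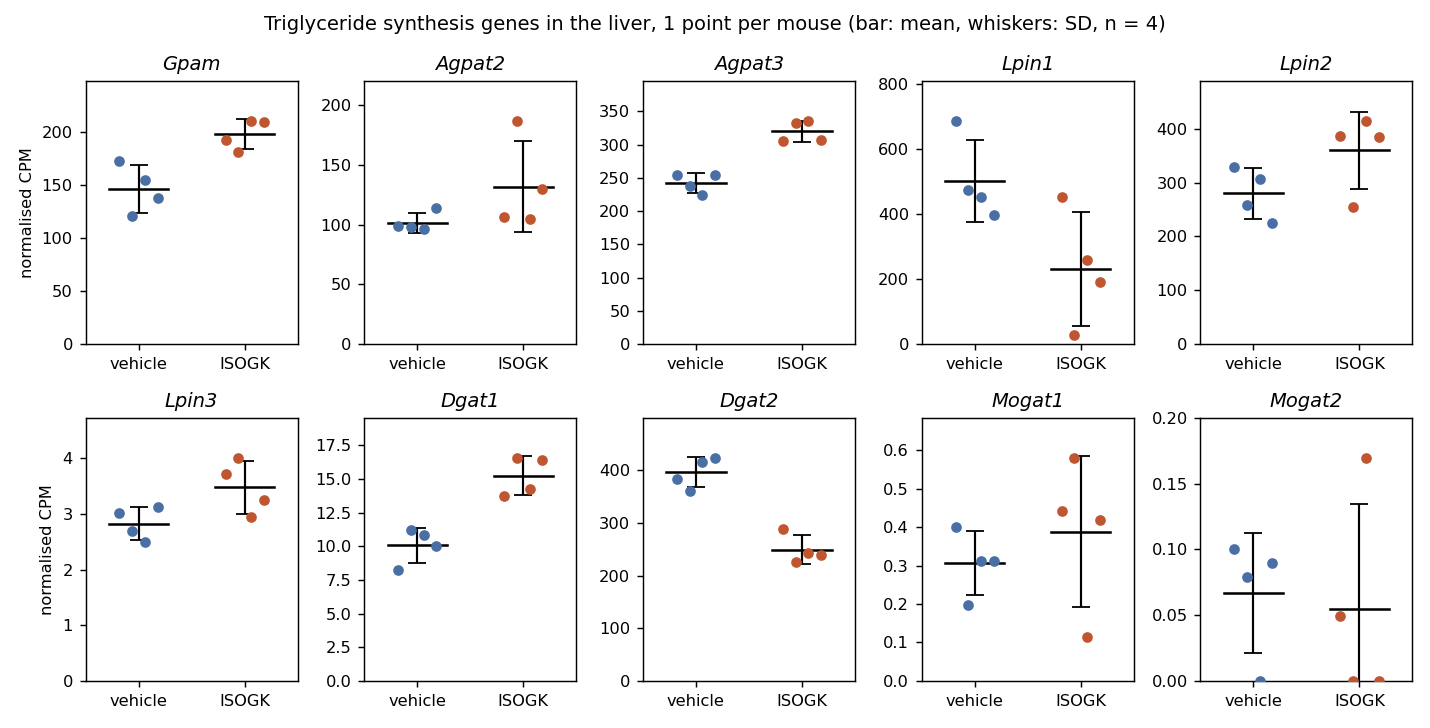
Normalised CPM of the 10 members on the vertical axis, in vehicle (blue) and ISOGK (orange) mice, with 1 point per mouse, the mean as a bar and the SD as whiskers (n = 4 per group). For *Gpam*, *Agpat3*, *Dgat1* and *Dgat2* no mouse of either group lies within the range of the other group, while *Lpin1* runs from 28.4 to 452 CPM within the ISOGK group.

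The initial acylation is carried out by GPAM, the rate-limiting enzyme of glycerolipid synthesis in many settings. *Gpam* (chromosome 19, 55067268 to 55127238, GRCm38) had 172.6, 120.5, 154.4 and 137.3 CPM in vehicle mice 1 to 4. In ISOGK mice 1 to 4 it had 191.9, 181, 210.1 and 209.3 CPM. Every ISOGK mouse was above every vehicle mouse, although the gap between the highest vehicle mouse and the lowest ISOGK mouse was small. On the log2 scale the difference was 0.44 (SE, standard error, 0.12, edgeR adjusted p = 0.0416), from 146.2 ± 22.4 to 198.1 ± 14.1 CPM (SD, n = 4). When 1 mouse was removed at a time, the log2 fold change lay between 0.36 and 0.53, and only the removal of vehicle mouse 1 kept the call. With counts scaled by library size alone, the log2 fold change was 0.31 (edgeR adjusted p = 0.128), in a scaling that shifted the median of all genes by -0.13.

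*Gpat4*, an acyltransferase of the endoplasmic reticulum that catalyses the same step, had 235.6, 226.9, 196.8 and 207.3 CPM with vehicle and 173.6, 322.0, 184 and 175.6 CPM with ISOGK. ISOGK mouse 2 was above all vehicle mice and the other 3 ISOGK mice were below all of them. The log2 fold change of *Gpat4* was -0.02 (95% interval -0.43 to 0.40, edgeR adjusted p = 0.966). Within a library, the log2 ratio of *Gpam* to *Gpat4* counts was -0.58 ± 0.25 with vehicle and -0.06 ± 0.52 with ISOGK (SD, n = 4, two-sided exact permutation test, p = 0.114).

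The next acylation belongs to the AGPAT enzymes. *Agpat3* (chromosome 10, 78269178 to 78352489) had 254, 237.7, 224.1 and 253.6 CPM in the vehicle mice and 305.8, 332.2, 335.2 and 307.1 CPM in the ISOGK mice. The groups did not overlap, and the mice of each group lay close together, with a coefficient of variation of 5.92% and 4.94%. *Agpat3* rose by 0.40 on the log2 scale (SE 0.09, edgeR adjusted p = 0.0199). The adjusted p was 0.0744 without vehicle mouse 2, 0.0719 without vehicle mouse 3, 0.0536 without ISOGK mouse 2 and 0.0981 with library size alone.

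*Agpat2*, whose loss in mice and people causes lipodystrophy, had 98.7, 98.2, 96.1 and 114.1 CPM with vehicle and 106.4, 186.6, 104.5 and 129.9 CPM with ISOGK. The ISOGK mice overlapped the vehicle mice, and ISOGK mouse 2 was the highest. The log2 fold change was 0.37 (95% interval 0.01 to 0.74, edgeR adjusted p = 0.2), and 0.16 without ISOGK mouse 2. Of the exon bases of *Agpat2*, 3% are shared with *Egfl7* on the opposite strand, which had a mean of 227.8 counts, and the use of strand in counting is not given in the sources used here. The log2 ratio of *Agpat2* to *Agpat3* was -1.25 ± 0.09 with vehicle and -1.32 ± 0.37 with ISOGK (SD, n = 4, two-sided exact permutation test, p = 0.8).

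Lipins remove the phosphate of phosphatidic acid, and lipin 1 also acts in the nucleus as a partner of transcription factors. *Lpin1* (chromosome 12, 16535669 to 16610966) had 687, 476.3, 454.6 and 397.7 CPM in vehicle mice 1 to 4 and 452, 28.4, 258.7 and 191.5 CPM in ISOGK mice 1 to 4. ISOGK mouse 1 lay within the vehicle range, the other 3 lay below it, and mouse 2 was far below the rest. The log2 fold change was -1.11 (95% interval -2.82 to 0.59, edgeR adjusted p = 0.399), and it was -0.74 (edgeR adjusted p = 0.233) without ISOGK mouse 2 and -1.66 (edgeR adjusted p = 0.226) without ISOGK mouse 1. Without ISOGK mouse 3 or 4 it was -1.17 or -1.03 (edgeR adjusted p = 0.448 and 0.566), and without vehicle mouse 4 it was -1.21 (edgeR adjusted p = 0.451). The SD of log2 CPM among ISOGK mice was 1.73 for *Lpin1*, and 25 of the 12307 tested genes had a larger one, while the median of all tested genes was 0.226. Among vehicle mice the SD of *Lpin1* was 0.337, with 15.6% of genes above it.

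The liver is known to express *Lpin1* in a daily rhythm that also follows feeding, so the time-of-day genes were read beside it, those named being chosen after their values were seen. *Nr1d1*, a repressor of the clock, had 58.3, 82.6, 56.6 and 71.3 CPM in the vehicle mice and 64.9, 9.87, 16.5 and 3.56 CPM in ISOGK mice 1 to 4. *Dbp*, a clock output factor, had 6.22 to 26.9 CPM in the vehicle mice, 10.6 CPM in ISOGK mouse 1 and 0.369 to 0.681 CPM in the other 3. *Arntl*, a clock activator, had 5.61 to 16.6 CPM in the vehicle mice and 13.9, 38.4, 30.9 and 25.6 CPM in ISOGK mice 1 to 4. *Lpin1*, *Nr1d1* and *Dbp* were thus low and *Arntl* was high in the same ISOGK mice 2, 3 and 4. The lowest *Lpin1* was in mouse 2 while the lowest *Nr1d1* was in mouse 4. Other genes of the list did not split in this way. *Clock* had 26.4 to 37.4 CPM with vehicle and 29.6, 40.0 and 26.8 CPM in ISOGK mice 2 to 4. *Per1* had 17.9 to 27.9 and 23.4, 20.2 and 34.2 CPM, and *Per2* had 5.46 to 16.8 and 3.91, 9.78 and 10.6 CPM. Among the vehicle mice, mouse 1 had the highest *Lpin1* and the lowest *Dbp*. None of the 12 time-of-day genes passed the test. Their median log2 fold change of -0.38 mixes opposite directions, such as 1.15 for *Arntl* and -2.28 for *Dbp*. These values include ISOGK mouse 1, and the spread was wide, with *Dbp* at 3.00 ± 5.03 CPM with ISOGK (SD, n = 4). The part of the time-of-day genes in the spread of *Lpin1* was not tested.

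**Figure D2:**
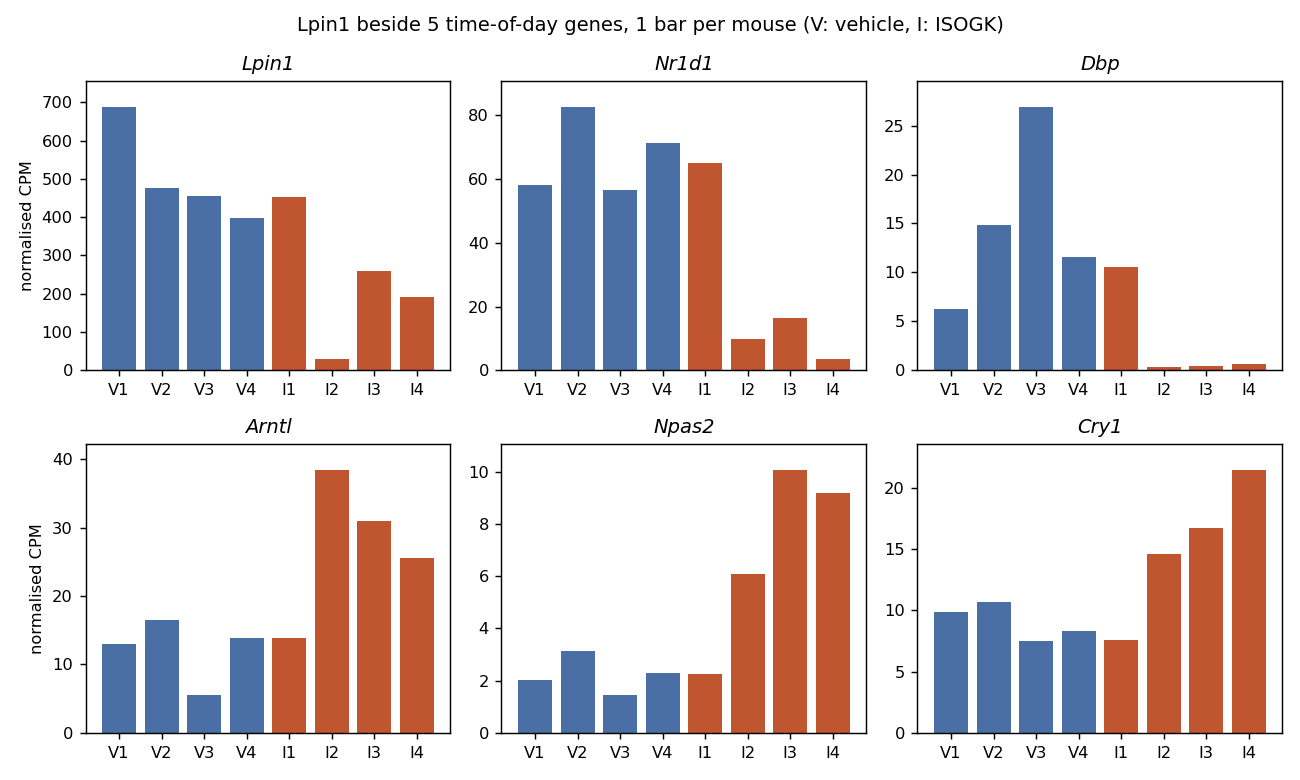
Normalised CPM on the vertical axis of *Lpin1* and 5 time-of-day genes, with 1 bar per mouse (V for vehicle in blue, I for ISOGK in orange). ISOGK mouse 1 has 452 CPM of *Lpin1* and 64.9 CPM of *Nr1d1*, while ISOGK mice 2, 3 and 4 have at most 258.7 and 16.5 CPM.

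*Lpin2*, the other lipin abundant in liver, had 329.5, 258.9, 306 and 224.3 CPM with vehicle and 386.5, 254.5, 413.8 and 385 CPM with ISOGK. ISOGK mice 1, 3 and 4 were above all vehicle mice and ISOGK mouse 2 was not. The log2 fold change was 0.36 (95% interval 0.01 to 0.72, edgeR adjusted p = 0.195), and 0.50 (edgeR adjusted p = 0.0639) without ISOGK mouse 2. *Lpin3* was scarce, with 52 to 76 counts in any library, and its log2 fold change was 0.30 (95% interval -0.08 to 0.68, edgeR adjusted p = 0.316).

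Read as a share of the summed lipin level per kilobase of exon, *Lpin1* made up 71.9%, 69.2%, 64.7% and 68.2% in the vehicle mice. In ISOGK mice 1 to 4 it made up 58.9%, 11.8%, 43.6% and 38% of that sum. The groups did not overlap in this share, and *Lpin2* held most of the rest, with 27.3% to 34.4% in the vehicle mice and 39.8% to 83.8% in the ISOGK mice. The log2 ratio of *Lpin1* to *Lpin2* counts was 0.83 ± 0.20 with vehicle and -1.16 ± 1.44 with ISOGK (SD, n = 4, two-sided exact permutation test, p = 0.0286, which is the lowest value this design can reach). Adjusted over the 6 ratios tested, this p was 0.0857.

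The last acylation gave the clearest opposition. *Dgat2* (chromosome 7, 99153658 to 99182719), which is usually linked to newly made fatty acids, had 384, 361, 415.7 and 423.2 CPM in the vehicle mice. In the ISOGK mice it had 288.9, 226, 242.7 and 238.2 CPM. All 4 ISOGK mice were below all 4 vehicle mice, and ISOGK mouse 1 was nearest to them. *Dgat2* thus had a log2 fold change of -0.67 (SE 0.10, edgeR adjusted p = 0.00336), or 0.629 times the vehicle level with a 95% interval of 0.537 to 0.736. This call was kept in all 16 alternative fits, with log2 fold changes from -0.80 to -0.63.

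*Dgat1* (chromosome 15, 76502015 to 76511953), which re-esterifies fatty acids that reach the liver preformed, had 8.23, 11.2, 10.8 and 10 CPM in the vehicle mice and 13.7, 16.6, 14.2 and 16.4 CPM in the ISOGK mice. The groups did not overlap. The values rest on 164 to 283 counts per vehicle library and 252 to 314 counts per ISOGK library. *Dgat1* rose by 0.60 on the log2 scale (SE 0.13, edgeR adjusted p = 0.0161), or 1.51 times the vehicle level with a 95% interval of 1.25 to 1.83. Of the 16 alternative fits, the fit without ISOGK mouse 2 lost the call (edgeR adjusted p = 0.0522), with a log2 fold change of 0.55.

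Despite its rise, *Dgat1* remained the minor transcript. Per kilobase of exon it made up 2.12%, 3.03%, 2.56% and 2.33% of the summed *Dgat1* and *Dgat2* level in the vehicle mice. In the ISOGK mice it made up 4.58%, 6.89%, 5.59% and 6.49%. The summed level itself followed *Dgat2*, with 132 ± 9.35 CPM per kilobase with vehicle and 85.7 ± 8.56 CPM per kilobase with ISOGK (SD, n = 4). The log2 ratio of *Dgat2* to *Dgat1* counts, which does not depend on the scaling of the libraries, was 5.54, 5.01, 5.26 and 5.40 in the vehicle mice and 4.39, 3.77, 4.09 and 3.86 in the ISOGK mice. The mean ratio differed by -1.28 on the log2 scale (two-sided exact permutation test, p = 0.0286, again the lowest reachable, and 0.0857 adjusted over 6 ratios).

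**Figure D3:**
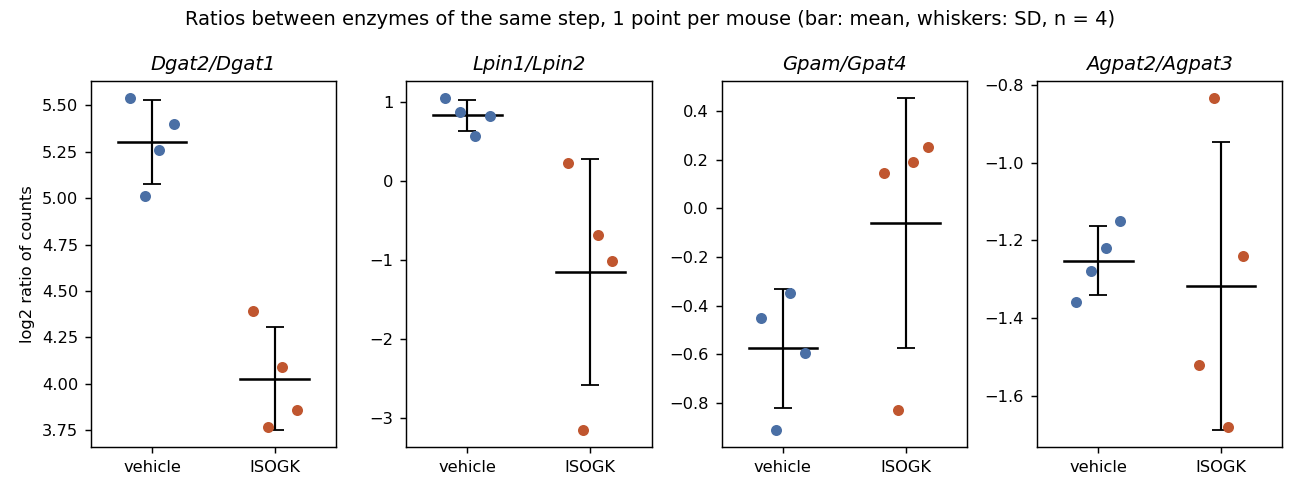
Log2 ratio of counts on the vertical axis between enzymes of the same step, with 1 point per mouse (vehicle in blue, ISOGK in orange), the mean as a bar and the SD as whiskers (n = 4 per group). The groups do not overlap for *Dgat2*/*Dgat1*, at 5.01 to 5.54 against 3.77 to 4.39, or for *Lpin1*/*Lpin2*, and they overlap for the other 2 ratios.

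*Mogat1* and *Mogat2* were close to undetected. *Mogat1* had 8, 5, 8 and 7 counts in the vehicle mice and 9, 11, 2 and 8 counts in the ISOGK mice. *Mogat2*, the intestinal form, had 2, 2, 0 and 2 counts with vehicle and 1, 0, 3 and 0 counts with ISOGK, and a change was not detectable at this depth for either gene. In a fit without the filter, *Mogat1* had a log2 fold change of 0.35 (95% interval -0.76 to 1.47) and *Mogat2* of -0.28 (95% interval -2.68 to 2.12). *Mogat2* lies next to *Dgat2* on chromosome 7, with 36364 bases and no annotated gene between them, so neighbouring genes of the same family differed greatly in level. The log2 ratio of *Mogat1* to *Dgat2* differed by 0.87 (two-sided exact permutation test, p = 0.143) and that to *Dgat1* by -0.40 (two-sided exact permutation test, p = 0.543). In *Mogat1*, 12.8% of the exon bases overlap *BC035947* on the opposite strand.

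Compared per kilobase of exon, the levels of the members spanned a wide range. With vehicle, *Dgat2* was highest at 128.4 ± 9.36 CPM per kilobase, above *Lpin1* at 52.1 ± 13.1 and *Agpat2* at 47.8 ± 3.91 CPM per kilobase, which overlapped each other. *Agpat3* followed at 31.1 ± 1.84 CPM per kilobase, then *Lpin2* at 22.9 ± 3.85 and *Gpam* at 21.9 ± 3.36 CPM per kilobase, and the last pair overlapped. *Dgat1* stood at 3.29 ± 0.432, *Lpin3* at 0.766 ± 0.0788, *Mogat1* at 0.196 ± 0.0536 and *Mogat2* at 0.0366 ± 0.0249 CPM per kilobase (SD, n = 4). With ISOGK, *Dgat2* was still highest on average, at 80.8 ± 8.94 CPM per kilobase, but it overlapped *Agpat2* at 61.9 ± 18 CPM per kilobase. *Agpat3* came next at 41.1 ± 2.03 CPM per kilobase, above *Gpam* at 29.7 ± 2.12 and *Lpin2* at 29.4 ± 5.85 CPM per kilobase, which overlapped. *Lpin1* came to 24.1 ± 18.1 CPM per kilobase, and its range of 2.94 to 46.8 reached from *Dgat1* to *Agpat3*. The last 4 genes by mean level stood in the same order in both groups, although *Mogat1* and *Mogat2* overlapped with ISOGK. Normalising to the longest transcript kept the rank of 8 members with vehicle and of 6 with ISOGK.

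The other glycerolipid synthesis genes were read from a list of 16, of which 3 were higher, 0 were lower and 13 did not pass the test, with a median log2 fold change of 0.08. *Gk*, glycerol kinase, which makes glycerol-3-phosphate from glycerol, had 66.5, 64, 66.5 and 68 CPM with vehicle and 116.6, 129.1, 127 and 131 CPM with ISOGK. Its log2 fold change was 0.93 (SE 0.08, edgeR adjusted p = 0.000121), and the groups lay far apart. *Gpd1*, which makes glycerol-3-phosphate from a glycolytic intermediate, had 189.2 to 246.8 CPM with vehicle and 346.4 to 456.5 CPM with ISOGK (log2 fold change 0.85, edgeR adjusted p = 0.00178). *Acsl1*, which activates fatty acids to acyl-CoA, had 603.9 to 984.1 CPM with vehicle and 1333 to 2009 CPM with ISOGK (log2 fold change 0.94, edgeR adjusted p = 0.00743). All 3 calls were kept in the 16 alternative fits, including those without ISOGK mouse 1 or vehicle mouse 4. Related genes of the list did not pass, with log2 fold changes of -0.27 for *Gpd1l*, 0.17 for *Acsl3*, -0.17 for *Acsl4* and -0.05 for *Acsl5*. Larger changes without a call were 0.77 for *Gpat3* (95% interval 0.22 to 1.31, edgeR adjusted p = 0.0867) and 0.50 for *Plpp2* (95% interval 0.19 to 0.82, edgeR adjusted p = 0.0564). *Gpat2* had -0.51 (edgeR adjusted p = 0.285), *Plpp1* had 0.23 and *Plpp3* had -0.06, also without a call. The isoforms *Agpat1*, *Agpat4* and *Agpat5* had log2 fold changes of -0.11, 0.08 and 0.08 and did not pass.

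**Figure D4:**
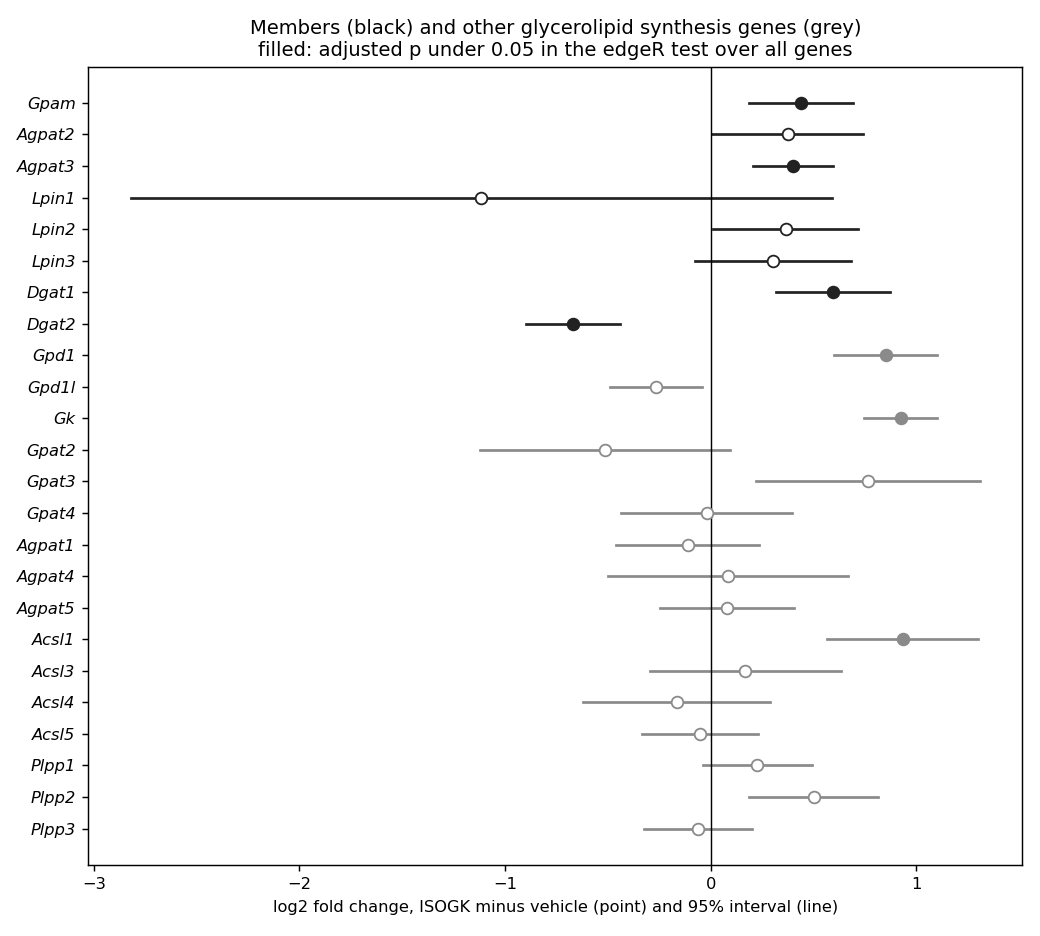
Log2 fold change of ISOGK against vehicle on the horizontal axis (point) with its 95% interval (line) for the 8 tested members in black and 16 other glycerolipid synthesis genes in grey, with filled points for an edgeR adjusted p under 0.05. *Dgat2* is the filled point left of 0, at -0.67, and *Lpin1* has the widest interval of the members, from -2.82 to 0.59.

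Among 12 transcriptional regulators of lipid synthesis, 3 were lower, 1 was higher and 8 did not pass the test. *Srebf1*, whose product activates *Gpam* and fatty acid synthesis genes, had 47.7, 67.9, 81.5 and 78.7 CPM in the vehicle mice and 20.6, 34, 16.9 and 19.3 CPM in the ISOGK mice. Its log2 fold change of -1.60 passed the test (SE 0.24, edgeR adjusted p = 0.00592), so *Gpam* and *Srebf1* moved in opposite directions. *Mlxipl*, the gene of ChREBP, a factor that responds to carbohydrate, had 76 to 103.8 CPM with vehicle and 32.3 to 48.7 CPM with ISOGK, with a log2 fold change of -1.12 (SE 0.13, edgeR adjusted p = 0.000908). *Insig1* fell by 0.65 and *Insig2* rose by 1.48 on the log2 scale (edgeR adjusted p = 0.00308 and 0.00178), and both products hold the SREBP precursors in the endoplasmic reticulum. *Ppara* and *Pparg*, nuclear receptors for fatty acids, had log2 fold changes of 0.06 (95% interval -0.19 to 0.31, edgeR adjusted p = 0.791, and -0.06 with library size alone) and 0.39 (95% interval -0.05 to 0.82, edgeR adjusted p = 0.265).

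On the side of triglyceride breakdown, 2 of 7 tested genes were higher, 0 were lower and 5 did not pass. *Mgll*, monoacylglycerol lipase, had 93.1, 65.7, 96.7 and 91.7 CPM with vehicle and 141, 163.1, 144.5 and 189.2 CPM with ISOGK, a log2 fold change of 0.88 (SE 0.14, edgeR adjusted p = 0.00336). *Pnpla2*, which encodes adipose triglyceride lipase, had 86.7 to 110.6 CPM with vehicle and 118.3 to 148.6 CPM with ISOGK, a log2 fold change of 0.40 (SE 0.11, edgeR adjusted p = 0.0466). That call was lost in 11 of the 16 alternative fits, among them those without vehicle mouse 4 (edgeR adjusted p = 0.0801) and without ISOGK mouse 1 (edgeR adjusted p = 0.0876). The eighth gene of that list, *Pnpla3*, did not pass the filter.

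Genes with the profile nearest to each changed member were found by the Euclidean distance between log2 CPM over the 8 libraries, each profile centred on its own mean. For *Gpam* they were *Psmd6* (distance 0.113) and *Hspa8* (0.251), and for *Agpat3* they were *Rad23b* (0.129) and *Gfra1* (0.16). For *Dgat1* they were *Gnpda2* (0.227) and *Htatip2* (0.231), and for *Dgat2* they were *Iqce* (0.0987) and *Cd68* (0.264). These distances share libraries and scaling factors.

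Markers of other cell types were read beside the members, and those named were chosen after their values were seen. Of the Kupffer cell and macrophage markers, 1 of 7 passed and was lower (*Cd68*), with a median log2 fold change of -0.51 and a summed level of 1055 to 1333 CPM with vehicle and 841.6 to 1086 CPM with ISOGK. Of the cholangiocyte markers, 1 of 5 passed and was higher (*Sox9*), with a median log2 fold change of 0.61 and summed levels of 27.5 to 34.8 and 28.2 to 69.1 CPM. None of 6 stellate cell markers (268.4 to 374.4 and 207.4 to 400 CPM) and none of 6 sinusoidal endothelial markers (283.6 to 320.4 and 275.9 to 317.9 CPM) passed. Of 5 adipocyte markers, only *Cfd* was in the table, at no more than 0.581 CPM in any library. Of 5 intestinal markers, *Fabp2*, *Vil1* and *Lct* were in the table and *Fabp2* was the 1 tested, without a call, with the sum at 23.1 to 35.5 and 28.7 to 41.4 CPM. The part of these cells in the members' changes was not tested. Without vehicle mouse 4, which held the muscle markers, the log2 fold changes were -0.64 for *Dgat2*, 0.59 for *Dgat1*, 0.42 for *Agpat3* and 0.41 for *Gpam*, with edgeR adjusted p = 0.014, 0.0449, 0.044 and 0.102. Without ISOGK mouse 1, whose time-of-day genes lay mostly in the vehicle range, they were -0.75, 0.64, 0.42 and 0.45, with edgeR adjusted p = 0.0024, 0.0168, 0.0272 and 0.0576. In that fit every ISOGK mouse left had most time-of-day genes outside the vehicle range. Treatment and the state of the time-of-day genes therefore cannot be told apart in it.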

How the data were processed

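Libraries of liver RNA (4 vehicle, 4 ISOGK) were sequenced from a single end. With HISAT2 the authors mapped the reads to mouse (mm10 in the submitters' processing notes), and they deposited whole-number read counts per gene from StringTie, without normalization. The annotation release and the use of strand are not given in the sources used here. Columns named DMSO were taken as the vehicle mice of the same number.

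From the counts, genes were filtered with filterByExpr of edgeR 4.0.16 (minimum count of 10, minimum total of 15), which kept 12307 of 16540. TMM factors and the robust quasi-likelihood test of edgeR in R 4.3.3 were used on all 8 libraries, and p was adjusted after Benjamini and Hochberg over all tested genes. For the sequencing data the study's methods name DESeq2 for normalization and no test of single genes. The labels do not say that libraries are separate mice, although they are called mice here. The p-values therefore set the group difference against the spread between these libraries. Intervals of 95% were placed around the fitted log2 fold change by its standard error. Log2 CPM had a prior count of 2, and 6 ratios of counts, with 0.5 added, were compared with two-sided exact permutation tests in SciPy 1.17.1. Gene positions and exon lengths came from GENCODE M21 (GRCm38).

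The members and gene lists were chosen with earlier results of these data known. Named genes were the members, up to 4 genes with an adjusted p under 0.05 from each of 6 pathway lists, *Srebf1*, *Mlxipl*, *Ppara* and *Pparg*, and the 2 nearest profiles per changed member. *Gpat4* entered through its ratio. The time-of-day genes, marker genes, *Pnpla3* and the fasting and glucocorticoid genes without a call were named after their values were seen. So were *Agpat1*, *Agpat4*, *Agpat5*, *Gpat2*, *Gpat3*, *Gpd1l*, *Acsl3*, *Acsl4*, *Acsl5*, *Plpp1*, *Plpp2* and *Plpp3*. The result of 1 listed gene is not reported here. Alternatives were DESeq2 1.42.0, limma-voom (limma 3.58.1), other scalings and filters, no robust option, a replicate block and each mouse left out. For named genes of the pathway lists these were added after seeing the data. The count tests were tested on simulated data.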

Additional observations from a re-analysis of the deposited data

Results flagged for a closer look

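In 70 groups of 4 mice, the gap between the farthest mouse and its nearest neighbour was compared with Dixon's 95% critical value. It was past that value in 5 groups, while 3.5 would be expected by chance. The groups did not cover every listed gene, and the values for *Gpat4* and for the ratio of *Gpam* to *Gpat4* are not independent. *Agpat2* had 114.1 CPM in vehicle mouse 4, against 96.1 to 98.7 CPM in the other vehicle mice. *Gpat4* had 322.0 CPM in ISOGK mouse 2, against 173.6 to 184 CPM in the other ISOGK mice. In the same mouse the log2 ratio of *Gpam* to *Gpat4* was -0.83, against 0.145 to 0.253 in the other ISOGK mice. *Dbp* had 10.6 CPM in ISOGK mouse 1, against 0.369 to 0.681 CPM in the other ISOGK mice. Outside the groups examined, the same mouse stood apart in *Per3* (2.50 CPM against 0.419 to 0.622) and *Ciart* (1.815 CPM against 0.264 to 0.452). *Mgll* had 65.7 CPM in vehicle mouse 2, against 91.7 to 96.7 CPM in the other vehicle mice.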

How the results depend on the processing

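The fall of *Dgat2* kept its direction and its call in all 16 alternatives, and none of the 8 tested members changed direction in any of them. Scaling by library size alone lowered the log2 fold change of *Gpam* to 0.31 and of *Agpat3* to 0.27, without a call, and left 1 member higher, with 262 genes higher and 804 lower among all genes. DESeq2 called 1435 genes, 765 higher and 670 lower. With each mouse left out, 0 to 3 members were higher (0 without ISOGK mouse 2, 1 without vehicle mouse 2 or vehicle mouse 3), and the log2 fold change was 0.36 to 0.53 for *Gpam*, 0.37 to 0.42 for *Agpat3* and 0.51 to 0.65 for *Dgat1*. The same fits called 379 to 1235 genes (219 to 712 higher, 160 to 523 lower), and 123 to 250 at a log2 fold change over 1, against 929 and 200 with all mice, and the fewest came without vehicle mouse 2. With the replicate number as a block, 827 genes were called and the member calls did not change, and same-numbered mice were not paired by the data, with correlations of their deviations of 0.013, -0.0144, 0.0754 and 0.0849 and 1 of 4 vehicle mice closest to its own number. With a mouse left out, the difference in log2 ratio ran from -0.228 to 0.0548 for *Agpat2*/*Agpat3* (above 0 without ISOGK mouse 1 or 3) and from -0.643 to 0.021 for *Mogat1*/*Dgat1* (above 0 without ISOGK mouse 3), and the smallest exact p is then 0.0571. Length of the longest transcript kept 6 of 10 ranks with ISOGK. Depth limits *Mogat1* and *Mogat2*, at no more than 11 counts per library. Among the named pathway genes, *Pnpla2* lost its call in 11 alternatives (0.39 with voom, DESeq2 size factors or no filter, 0.3954 without the robust option, 0.27 with library size alone, and 0.3308 to 0.4447 with each mouse left out), *Mttp* lost it with library size alone (0.39), and *Ppara* turned to -0.06202 with library size alone, without a call.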

Other observations

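Genes of the fasting and glucocorticoid response were examined after the members. Of 9 such genes, 1 was higher, 7 did not pass and 1 is not reported here. Those that did not pass went both ways, with log2 fold changes of 0.51 for *Pck1*, 0.23 for *G6pc* and 1.14 for *Igfbp1*. *Tat* had 0.60, *Sgk1* 0.23, *Fkbp5* -0.85 and *Tsc22d3* -0.31. *Pdk4*, a kinase that restrains pyruvate oxidation in fasting, had 6.80 to 8.88 CPM with vehicle and 16.5, 29.5, 42.3 and 49.3 CPM in ISOGK mice 1 to 4, a log2 fold change of 2.16 (SE 0.31, edgeR adjusted p = 0.00547).

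Of 6 genes of VLDL assembly, 1 was higher and 5 did not pass. *Mttp*, which loads triglyceride onto apolipoprotein B, had 237.3 to 301.7 CPM with vehicle and 361.8 to 426.2 CPM with ISOGK, a log2 fold change of 0.52 (SE 0.10, edgeR adjusted p = 0.0112). With library size alone it was 0.39 (edgeR adjusted p = 0.0592).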
